A study of Mus musculus with 6 samples.

Results

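The genes described here are 39 genes of the unfolded protein response and the integrated stress response, of 19938 genes measured with a single gene symbol. They were taken by symbol from the array annotation, with the brightest probeset per gene by its mean over all 6 arrays. The rule uses no measured difference, but the genes were proposed with earlier results of these data known. They fall into 14 chaperones and folding enzymes of the endoplasmic reticulum (ER), 5 genes of ER-associated degradation, 4 genes of the stress sensors and XBP1, and 16 genes of the ATF4 pathway. HLX is a transcription factor of the homeobox class, and cells transduced with it were compared with cells transduced with the vector alone. All cells came from the bone marrow of wild-type, young adult FVB/nJ mice and were sorted for Kit and Sca-1 and against lineage markers, a fraction that holds stem cells and early progenitors. The 3 HLX samples carried mouse HLX on a lentivirus of the pCAD-IRES-GFP type, and the 3 control samples carried that GFP lentivirus alone. Both groups were cultured with the virus for 2 days in serum with stem cell factor, IL-3, IL-6 and 8 µg/ml polybrene. GFP-positive cells were then sorted, so each sample was a mixed population of transduced cells, and RNA of 5000 to 10000 cells was amplified from 3 ng for the array. The labels do not state whether replicates 1 to 3 were separate mice or separate cultures, so each p-value reflects only how far these samples spread, and that spread may be technical.

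The ER is where secreted and membrane proteins fold. When unfolded proteins accumulate there, the sensors IRE1, ATF6 and PERK start the unfolded protein response: IRE1 splices the XBP1 transcript, ATF6 is cleaved to an active factor, and both raise the transcription of chaperones and degradation genes. PERK, with other kinases that answer to amino acid lack, viral RNA or haem lack, phosphorylates the translation factor eIF2 alpha, which lowers general protein synthesis and raises the translation of ATF4, the factor at the centre of the integrated stress response. Haematopoietic stem cells are known for a low rate of protein synthesis and for sensitivity to disturbed protein folding.

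At the adjusted threshold of 0.05, 0 of the 39 genes differed between HLX and control cells by limma over all 19938 genes, where the share called was 0% in all, and the smallest adjusted p among the 39 was 0.906. At an unadjusted p under 0.05 stood 4 of the 39 genes with higher levels in HLX cells, against 2.44% of all genes, and 1 with lower levels, against 2.36% of all genes. The 4 higher ones were Hyou1, Sdf2l1, Pdia3 and Edem1, of the chaperone and degradation genes, and the lower one was Ppp1r15a, of the ATF4 pathway. Over all genes 487 stood higher and 471 lower at that level, and after centring each array on its median the split was 612 higher and 376 lower. Among the 14 chaperone and folding genes, 12 had a log2 difference above 0, and the median was 0.06. Among the 16 ATF4-pathway genes, 6 had a difference above 0, with a median of -0.04. Over all genes 47.5% lay above 0, with a median of -0.01. The chaperone list consists mostly of bright probesets, 13 of 14 being among the brightest 30% of genes, and of those brightest genes 56.4% lay above 0, with a median of 0.02. Of the ATF4-pathway genes 10 of 16 were among the brightest 30%. Each sample is a bulk population, in which fewer cells of a type and less RNA per cell cannot be told apart.

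Hlx itself, the gene on the vector, checked the labels. Its log2 level was 10.75, 9.74 and 10.28 on the HLX arrays, against 6.99, 7.29 and 7.62 on the control arrays, a difference of 2.95 ± 0.27 (SE), or 7.75-fold (adjusted p from limma 0.0782). The groups did not overlap, and the exact 2-sided permutation test gave p = 0.1, the smallest that 3 arrays against 3 allow. Kit, a surface receptor by which the cells were sorted, had log2 levels of 9.59, 9.58 and 9.31 in HLX cells, against 9.20, 9.50 and 9.53 in control cells. The median log2 level of an array lay between 6.32 and 6.40, and correlations between arrays over all genes were 0.980 to 0.987. Levels are RMA values on the log2 scale throughout, means are given ± SD over the 3 arrays of a group, and differences are HLX minus control.

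The chaperone genes are known for the ER stress response element in their promoters, the sequence CCAAT, 9 bases of any kind, then CCACG, which is bound by NF-Y together with ATF6 or XBP1. It was searched on both strands, from 250 bases before to 50 after each RefSeq start (build GRCm38.p6), a window that 34 of the 39 genes had. Of 12 chaperone genes with a window, 7 (58.3%) held it, against 37 of 27025 genes in all (0.137%). None of the 15 ATF4-pathway genes with a window held it, nor did the 3 sensor genes with one, and of 4 degradation genes Syvn1 held it. The element was defined in part on chaperone promoters such as that of Hspa5, so these matches are a description of the list. The matches of the 7 chaperone genes are shown because they mark the shared promoter feature of the list, 5′ to 3′ on the strand named, with the fixed letters in capitals and the spacer and flanks in lower case.
Hspa5, chr2:34772020-34772048, strand +: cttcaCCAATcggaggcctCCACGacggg
Hsp90b1, chr10:86705633-86705661, strand -: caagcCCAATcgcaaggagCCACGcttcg
Hsp90b1, chr10:86705528-86705556, strand +: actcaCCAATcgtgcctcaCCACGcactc
Calr, chr8:84847070-84847098, strand +: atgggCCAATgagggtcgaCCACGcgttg
Canx, chr11:50325795-50325823, strand -: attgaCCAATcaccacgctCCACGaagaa
Pdia6, chr12:17266486-17266514, strand +: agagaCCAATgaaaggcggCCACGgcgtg
Dnajc3, chr14:118937822-118937850, strand +: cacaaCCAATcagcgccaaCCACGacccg
Creld2, chr15:88819515-88819543, strand -: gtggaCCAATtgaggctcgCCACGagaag
Hsp90b1 held the element at both of the sites shown. With up to 1 mismatch in the fixed letters, 9 of the 12 chaperone genes and 466 of all 27025 genes (1.72%) had a match. So did 3 of the 4 degradation genes, namely Syvn1, Herpud1 and Sel1l. Of the 15 ATF4-pathway genes 1 had such a match, Ddit3, and of the 3 sensor genes 0. Dnajb11 held the related element ERSE-II, the sequence ATTGG, 1 base of any kind, then CCACG, which 12 of all genes (0.0444%) held.

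Hspa5 encodes BiP, the Hsp70 chaperone of the ER lumen that binds unfolded chains and holds the sensors inactive. Its log2 level was 11.02, 11.16 and 10.94 on the HLX arrays, against 10.99, 11.0003 and 11.01 on the control arrays. The HLX arrays lay on both sides of the closely spaced control arrays, and the difference was 0.04 ± 0.10 (SE), with a 95% interval of -0.19 to 0.26 (adjusted p from limma 0.9999). Hsp90b1, the Hsp90 chaperone GRP94 of the ER, averaged 12.04 ± 0.09 in HLX cells and 12.01 ± 0.03 in control cells, a difference of 0.02 with a range of 0.15 over the 6 arrays. In both genes, whose promoter matches are shown above, the difference was smaller than the spread between the arrays.

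Hyou1 encodes GRP170, the exchange factor that lets BiP release its clients. Its log2 level was 8.95, 8.84 and 8.93 on the HLX arrays, against 8.48, 8.03 and 8.57 on the control arrays. All 3 HLX arrays stood above all 3 control arrays, with control replicate 2 the lowest. The difference was 0.55 ± 0.15 (SE), or 1.46-fold (unadjusted p 0.00809, adjusted p from limma 0.906). Sdf2l1 encodes an ER protein that works in a complex with the co-chaperone Dnajb11. Levels of Sdf2l1 were 8.83, 9.12 and 9.51 on the HLX arrays, against 8.67, 8.30 and 8.64 on the control arrays. The groups again did not overlap, the HLX arrays being the more spread of the pair of groups, and the difference was 0.61 ± 0.19 (SE), or 1.53-fold (unadjusted p 0.0134, adjusted p 0.932). These were the 2 largest differences among the 39 genes in the direction of higher levels in HLX cells.

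Pdia3, or ERp57, is the disulfide isomerase that acts on glycoproteins held by calnexin and calreticulin. On the log2 scale it stood at 11.05, 11.07 and 11.01 on the HLX arrays, against 10.81, 10.81 and 10.85 on the control arrays. Both groups were tightly spaced and apart from each other, with a difference of 0.22 ± 0.08 (SE), or 1.17-fold (unadjusted p 0.0323, adjusted p 0.9999). Its partners overlapped between the groups. Canx, the membrane-bound lectin chaperone calnexin, averaged 11.98 ± 0.02 in HLX cells and 11.98 ± 0.02 in control cells, a difference of 0.00 with a 95% interval of -0.20 to 0.20. Calr, its soluble counterpart calreticulin, averaged 11.002 ± 0.06 in HLX cells and 11.08 ± 0.06 in control cells, a difference of -0.08 with an interval of -0.29 to 0.14. The stretch of 250 bases before the start of Pdia3 is shown because it carries a match to the ER stress response element with 1 mismatch, in capitals with its spacer in lower case, in a stretch of 75.6% G and C.
Pdia3, chr2:121413652-121413901, strand +: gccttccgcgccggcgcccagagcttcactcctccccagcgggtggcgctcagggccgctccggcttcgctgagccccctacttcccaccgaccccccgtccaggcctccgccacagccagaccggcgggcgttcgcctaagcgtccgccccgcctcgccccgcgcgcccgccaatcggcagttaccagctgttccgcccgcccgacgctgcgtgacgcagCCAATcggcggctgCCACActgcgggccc

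Of the other disulfide isomerases, Pdia4 (ERp72) had log2 levels of 9.72, 9.41 and 9.43 in HLX cells, against 9.46, 9.25 and 9.21 in control cells. The difference was 0.22 ± 0.12 (SE) (unadjusted p 0.125), and control replicate 1 lay above 2 of the HLX arrays. A second probeset of Pdia4 was dimmer and differed by -0.03. Pdia6 (P5) averaged 9.94 ± 0.10 in HLX cells and 9.91 ± 0.13 in control cells, a difference of 0.03. Among the J-domain co-chaperones of BiP, Dnajc3 (p58IPK) had log2 levels of 10.50, 10.54 and 10.40 in HLX cells, against 10.32, 10.41 and 10.22 in control cells. Its lowest HLX array lay just below its highest control array, and the difference was 0.16 ± 0.10 (SE) (unadjusted p 0.140). Its 2 probesets held identical values. Dnajb11 (ERdj3) averaged 10.06 ± 0.04 in HLX cells and 10.01 ± 0.11 in control cells, a difference of 0.04.

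Dnajb9 (ERdj4), which returns IRE1 to its resting state, varied the most of the 39 genes. It ranged from 6.61 to 7.78 on the HLX arrays and from 6.61 to 7.90 on the control arrays, with HLX replicate 2 and control replicate 1 the high arrays, and the difference was -0.04 ± 0.41 (SE). Creld2, an ER protein whose transcript is known to be induced by ER stress, had log2 levels of 8.82, 8.74 and 9.20 in HLX cells, against 8.83, 8.30 and 8.62 in control cells. The groups overlapped, and the difference was 0.34 ± 0.18 (SE) (unadjusted p 0.0971). Manf, a stress-induced ER protein that binds BiP, averaged 9.92 ± 0.08 in HLX cells and 9.84 ± 0.05 in control cells, a difference of 0.07.

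**Figure D1:**
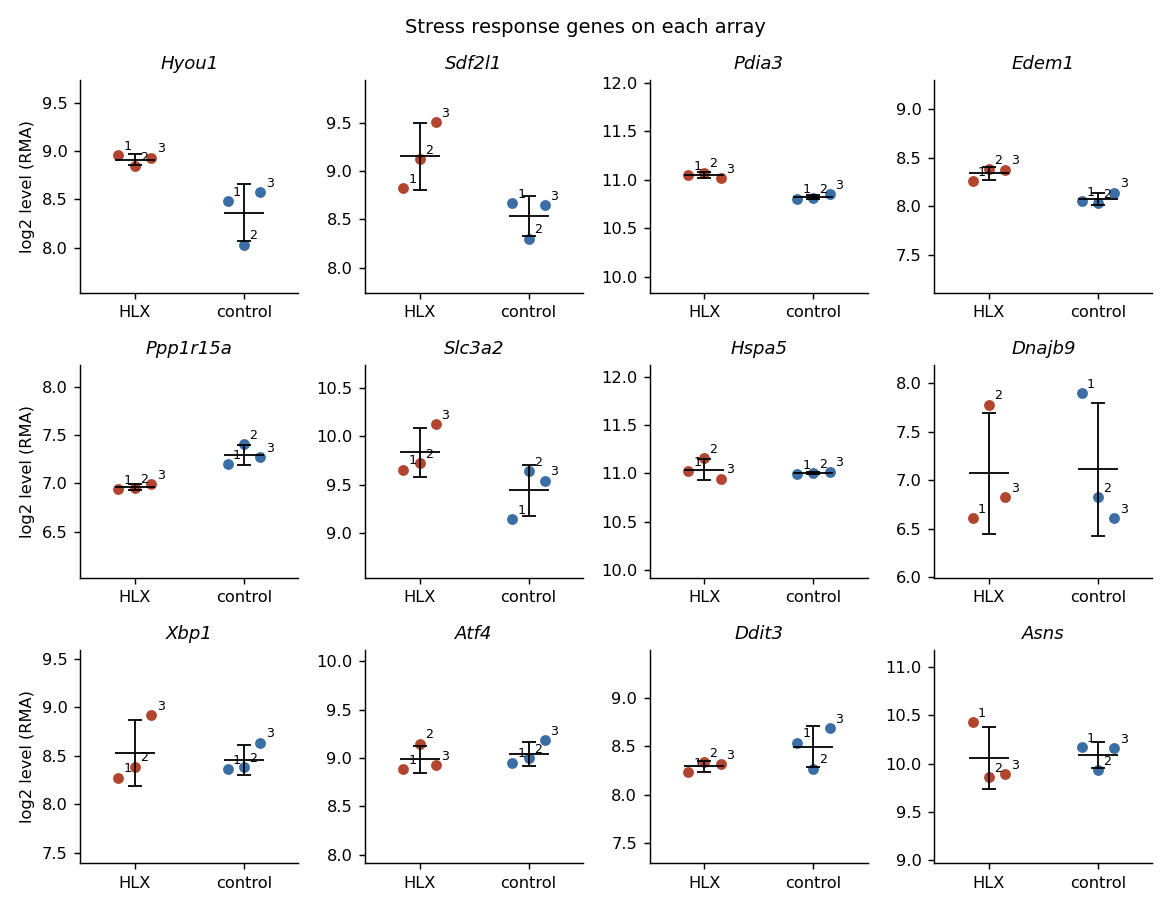
Log2 level (RMA) of 12 of the 39 genes on each of the 6 arrays, HLX arrays at left and control arrays at right of each panel, numbered by replicate; horizontal lines are means, error bars are 1 SD over 3 arrays, and all vertical axes span the same number of log2 units. Hyou1, Sdf2l1, Pdia3, Edem1 and Slc3a2 stood higher and Ppp1r15a lower on all HLX arrays, Slc3a2 by a gap of 0.01. Hspa5, Xbp1, Atf4, Ddit3 and Asns overlapped, and Dnajb9 varied within both groups.

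Genes of ER-associated degradation send misfolded proteins to the proteasome. Edem1, which acts on misfolded glycoproteins, had log2 levels of 8.26, 8.38 and 8.38 in HLX cells, against 8.05, 8.03 and 8.14 in control cells. No HLX array fell within the control range, and the difference was 0.27 ± 0.09 (SE), or 1.20-fold (unadjusted p 0.0220, adjusted p from limma 0.951). The remaining members of the list overlapped between groups. Sel1l, the adaptor of the ubiquitin ligase HRD1, stood at 8.29, 8.20 and 8.16 on the HLX arrays, against 8.49, 8.11 and 8.44 on the control arrays, a difference of -0.13 ± 0.12 (SE) (unadjusted p 0.328). Derl1, part of the route out of the ER, stood at 8.77, 8.98 and 9.004 on the HLX arrays, against 8.87, 8.73 and 8.82 on the control arrays, a difference of 0.11 ± 0.10 (SE) (unadjusted p 0.318). Syvn1, which encodes HRD1 itself, averaged 7.98 ± 0.25 in HLX cells and 8.0002 ± 0.10 in control cells, a difference of -0.02 with a range of 0.49 over the arrays. Herpud1, which brings the HRD1 complex together, averaged 8.57 ± 0.33 in HLX cells and 8.60 ± 0.14 in control cells, a difference of -0.03 with a range of 0.62. Herpud1 was the only one of the 34 genes searched to hold both ERSE-II and the element of ATF4 described below, and Syvn1 held the ER stress response element, as follows.
Syvn1, chr19:6046527-6046555, strand +: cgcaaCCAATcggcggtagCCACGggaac
Herpud1, chr8:94386372-94386392, strand +: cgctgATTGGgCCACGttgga
Herpud1, chr8:94386312-94386329, strand -: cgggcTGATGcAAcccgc

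None of the sensor genes was at an unadjusted p under 0.05. Ern1, which encodes IRE1 alpha, had log2 levels of 8.65, 8.77 and 8.37 in HLX cells, against 8.90, 8.47 and 8.41 in control cells, with a 95% interval of the difference of -0.39 to 0.40. Xbp1, the transcript that IRE1 splices, stood at 8.28, 8.39 and 8.92 on the HLX arrays, against 8.36, 8.38 and 8.64 on the control arrays, with an interval of -0.36 to 0.49. The array measures the total transcript level here, and splicing of Xbp1 was not analysed. Atf6 stood at 9.53, 9.24 and 9.06 on the HLX arrays, against 9.12, 9.49 and 9.43 on the control arrays, with an interval of -0.43 to 0.30. Eif2ak3, which encodes PERK, stood at 6.81, 7.36 and 7.18 on the HLX arrays, against 7.11, 6.998 and 7.20 on the control arrays, with an interval of -0.34 to 0.37. In all 4 the groups overlapped, and the differences lay between -0.07 and 0.07. Cleavage of ATF6 and phosphorylation of eIF2 alpha are protein events that these values do not cover.

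ATF4 binds the C/EBP-ATF response element, here searched as TGATGNAA on both strands. Of 15 ATF4-pathway genes with a window, 6 (40.0%) held it, against 1219 of all 27025 genes (4.51%) and none of the 12 chaperone genes. The matches are shown because they are the promoter feature of this list, as above, with the fixed letters in capitals.
Atf3, chr1:191183431-191183448, strand +: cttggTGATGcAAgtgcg
Trib3, chr2:152344034-152344051, strand +: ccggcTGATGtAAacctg
Chac1, chr2:119351044-119351061, strand -: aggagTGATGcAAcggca
Asns, chr6:7693220-7693237, strand -: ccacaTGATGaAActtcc
Slc7a11, chr3:50443667-50443684, strand -: gtggcTGATGcAAacctg
Slc7a11, chr3:50443648-50443665, strand +: catgaTGATGcAAattct
Vldlr, chr19:27216815-27216832, strand -: agcgcTGATGcAActatt
The promoter of Slc7a11 held 2 such matches, on opposite strands, and the match of Trib3 lay just after its start. Some of these genes, such as Asns and Trib3, helped to define the element. None of the 34 genes searched held the XBP1 element TGACGTGG, which 0.714% of all genes held. It shares its first 6 letters with the cAMP response element TGACGTCA, so that 1 site can match only one of them, and its reverse complement begins with CCACG, the end of both ER stress elements.

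Atf4 had log2 levels of 8.89, 9.15 and 8.93 in HLX cells, against 8.95, 9.002 and 9.19 in control cells. The groups overlapped, and the difference was -0.06 ± 0.12 (SE) with a 95% interval of -0.33 to 0.21. ATF4 is known to be controlled mainly through its translation, which these values do not cover. Ddit3 encodes CHOP, the factor downstream of ATF4 that is linked to cell death, and stood at 8.23, 8.34 and 8.31 on the HLX arrays, against 8.54, 8.27 and 8.69 on the control arrays. Control replicate 2 lay among the HLX arrays, and the difference was -0.20 ± 0.12 (SE) (unadjusted p 0.145). The related factor Atf3, below the array median on all 6 arrays, averaged 6.02 ± 0.16 in HLX cells and 6.08 ± 0.15 in control cells, a difference of -0.06. Atf5 averaged 7.98 ± 0.16 in HLX cells and 7.93 ± 0.08 in control cells, a difference of 0.05.

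Ppp1r15a encodes GADD34, the inducible subunit that directs a phosphatase to eIF2 alpha and so lets translation resume. Its log2 level was 6.94, 6.95 and 6.99 on the HLX arrays, against 7.19, 7.40 and 7.27 on the control arrays. The 3 HLX arrays lay close together, below all 3 control arrays, and the difference was -0.33 ± 0.10 (SE), 1.26-fold lower in HLX cells (unadjusted p 0.00974, adjusted p from limma 0.932). Ppp1r15b encodes CReP, the constitutive counterpart of GADD34, and averaged 8.62 ± 0.15 in HLX cells and 8.67 ± 0.05 in control cells, a difference of -0.05. Its dimmer second probeset differed by -0.23. The 250 bases before the start of Ppp1r15a are shown because it was the only one of the 34 genes searched to hold the cAMP response element, in capitals, which 2.03% of all genes held.
Ppp1r15a, chr7:45526269-45526518, strand -: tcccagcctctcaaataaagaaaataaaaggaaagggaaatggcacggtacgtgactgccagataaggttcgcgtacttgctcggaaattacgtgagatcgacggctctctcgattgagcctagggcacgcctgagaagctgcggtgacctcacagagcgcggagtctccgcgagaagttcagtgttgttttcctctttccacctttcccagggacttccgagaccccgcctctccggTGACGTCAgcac

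Trib3, a pseudokinase induced by CHOP and ATF4, averaged 6.64 ± 0.16 in HLX cells and 6.68 ± 0.30 in control cells, a difference of -0.04. Chac1, an enzyme that degrades glutathione, averaged 7.55 ± 0.13 in HLX cells and 7.73 ± 0.42 in control cells, a difference of -0.18 with a range of 0.82 over the arrays. The amino acid genes of the list are given next. Asns, which makes asparagine, averaged 10.06 ± 0.32 in HLX cells and 10.09 ± 0.13 in control cells, a difference of -0.03. Phgdh and Psat1, consecutive enzymes of serine synthesis, each differed by 0.01. Phgdh averaged 7.93 ± 0.02 in HLX cells and 7.92 ± 0.30 in control cells, and Psat1 averaged 9.13 ± 0.20 in HLX cells and 9.12 ± 0.20 in control cells. Ddit4 (REDD1), an inhibitor of mTORC1 signalling, averaged 7.32 ± 0.05 in HLX cells and 7.36 ± 0.15 in control cells, a difference of -0.03.

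Slc3a2 and Slc7a11 form the cystine and glutamate exchanger, Slc3a2 as the heavy chain that it shares with other amino acid transporters. Log2 levels of Slc3a2 were 9.65, 9.72 and 10.13 on the HLX arrays, against 9.14, 9.64 and 9.54 on the control arrays. Slc3a2 was the fifth gene of the 39 to stand higher in HLX cells with no overlap, though by a gap of 0.01 between the closest arrays, and the difference was 0.39 ± 0.18 (SE) (unadjusted p 0.0608). For Slc7a11 the levels were 6.68, 5.99 and 6.51 on the HLX arrays, against 6.56, 6.55 and 6.56 on the control arrays. HLX replicate 2 was the low array, the control arrays were nearly equal, and the difference was -0.16 ± 0.17 (SE) (unadjusted p 0.373). Sesn2, a stress-induced inhibitor of mTORC1, had log2 levels of 7.23, 7.36 and 7.52 in HLX cells, against 7.34, 7.23 and 7.15 in control cells, a difference of 0.13 ± 0.11 (SE) (unadjusted p 0.270). Vldlr, a lipoprotein receptor raised by PERK and ATF4 signalling, averaged 7.82 ± 0.46 in HLX cells and 7.55 ± 0.42 in control cells, a difference of 0.26 with a range of 1.23.

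**Figure D2:**
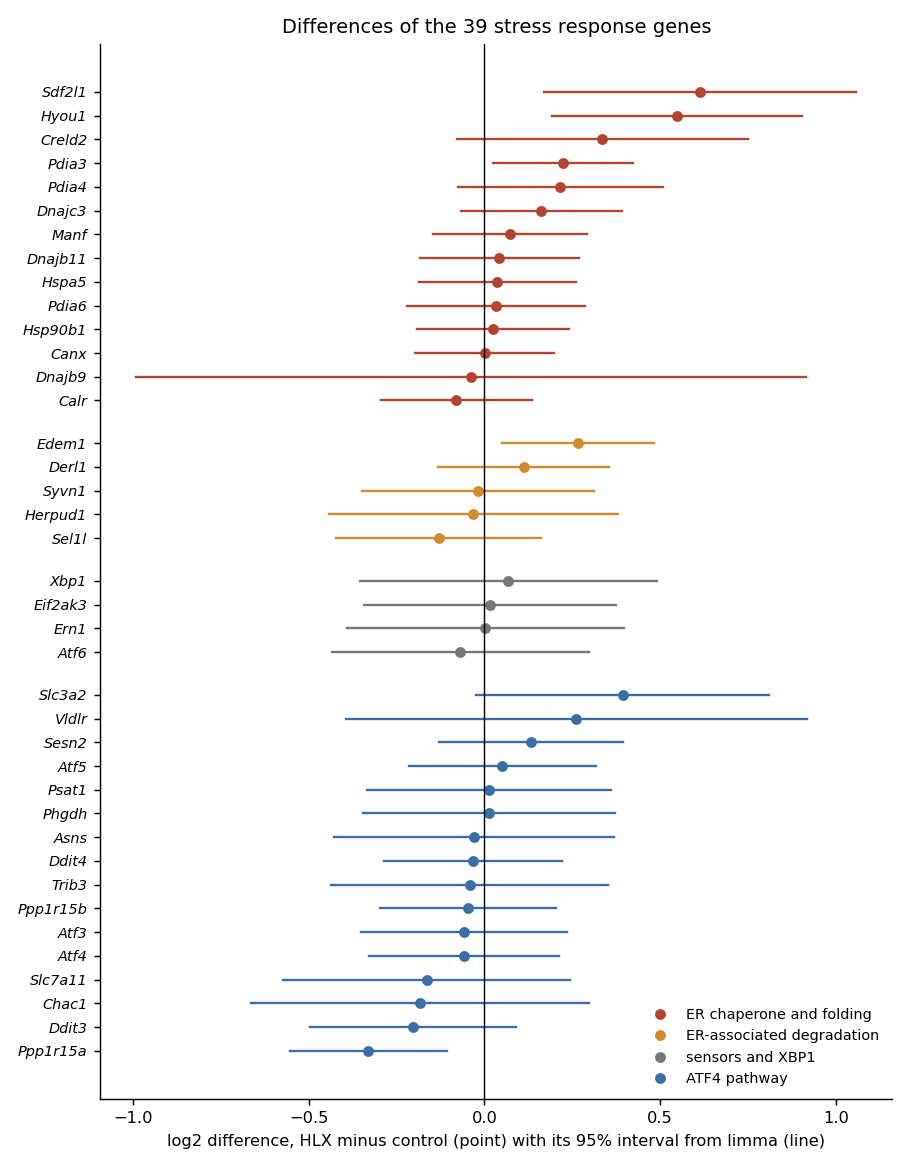
Log2 difference, HLX minus control, of each of the 39 genes (point) with its 95% interval from limma (line), by list and in order of size. The intervals of Sdf2l1, Hyou1, Pdia3, Edem1 and Ppp1r15a leave out 0, with p-values that did not pass after adjustment over all genes.

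In all, 5 of the 39 genes stood higher in HLX cells with no overlap between groups, against 4.34% of all genes, and 1 stood lower, against 4.85% of all genes. By list, the chaperones had 3 such genes higher and 0 lower, the degradation genes 1 higher and 0 lower, the sensors none, and the ATF4 pathway 1 higher and 1 lower. Each array was also given a list level, the mean over the members of the level minus that gene's mean over the 6 arrays. For the chaperones the list level was 0.04, 0.12 and 0.08 on the HLX arrays, against 0.03, -0.18 and -0.09 on the control arrays. All 3 HLX arrays were above all 3 control arrays, with control replicate 1 only just below HLX replicate 1. For the ATF4 pathway it was 0.01, -0.04 and 0.00 on the HLX arrays, against -0.07, 0.02 and 0.08 on the control arrays, and the HLX arrays lay within the control range. The chaperone level minus the ATF4-pathway level was 0.03, 0.16 and 0.07 on the HLX arrays, against 0.10, -0.20 and -0.17 on the control arrays. Control replicate 1 stood within the HLX range in this difference, so the groups overlapped. For the degradation genes the list level was 0.00, 0.06 and -0.01 on the HLX arrays, against 0.00, -0.10 and 0.04 on the control arrays, and for the sensors -0.06, 0.06 and 0.00 on the HLX arrays, against 0.00, -0.04 and 0.04 on the control arrays. Both lists overlapped between groups. Without Dnajb9, a choice made after its values were seen, the chaperone level was 0.08, 0.07 and 0.11 on the HLX arrays, against -0.02, -0.17 and -0.06 on the control arrays.

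**Figure D3:**
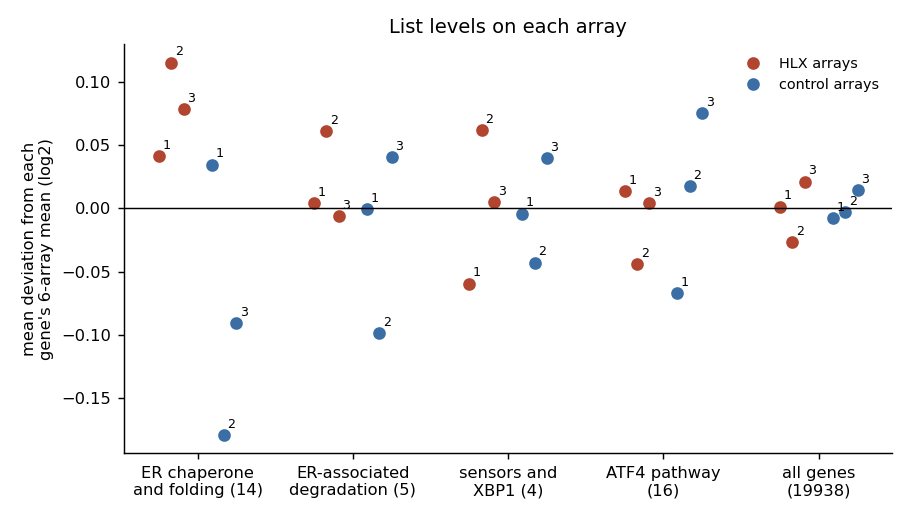
List level on each array, the mean over list members of the log2 level minus each gene's 6-array mean, HLX arrays left of control arrays within each list and numbered by replicate. The chaperone level was 0.04 to 0.12 on the HLX arrays and -0.18 to 0.03 on the control arrays, and the other lists and all genes overlapped.

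Single arrays moved these summaries. The chaperone median was 0.06 with all arrays, 0.13 without control replicate 1, 0.10 without HLX replicate 1 and 0.09 without control replicate 3. It was 0.08 without HLX replicate 2, 0.08 without HLX replicate 3 and 0.04 without control replicate 2. The ATF4-pathway median was -0.04 with all arrays, -0.07 without HLX replicate 1, -0.01 without control replicate 1, 0.01 without control replicate 3 and 0.02 without HLX replicate 2. Without HLX replicate 2, 3 in place of 5 of the 39 genes stood at an unadjusted p under 0.05, namely Hyou1, Sdf2l1 and Ppp1r15a. With that array left out, 9 of 14 chaperone genes and 10 of 16 ATF4-pathway genes lay above 0, against 12 and 6 with all arrays.

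Within the lists, genes with and without the promoter elements were set side by side as a description. The 7 chaperone genes with the ER stress response element had a median log2 difference of 0.03, from -0.08 for Calr to 0.34 for Creld2. The 5 chaperone genes with a window and no exact match had a median of 0.22, from -0.04 for Dnajb9 to 0.61 for Sdf2l1. Among them Pdia3 and Pdia4 held the element with 1 mismatch, and Dnajb11 held ERSE-II, so this split depends on the exact match. Hyou1 and Manf had no window. Of the ATF4-pathway genes, the 6 with the C/EBP-ATF element had a median of -0.05, with 1 above 0, and the 9 with a window and no match had a median of 0.01, with 5 above 0.

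**Figure D4:**
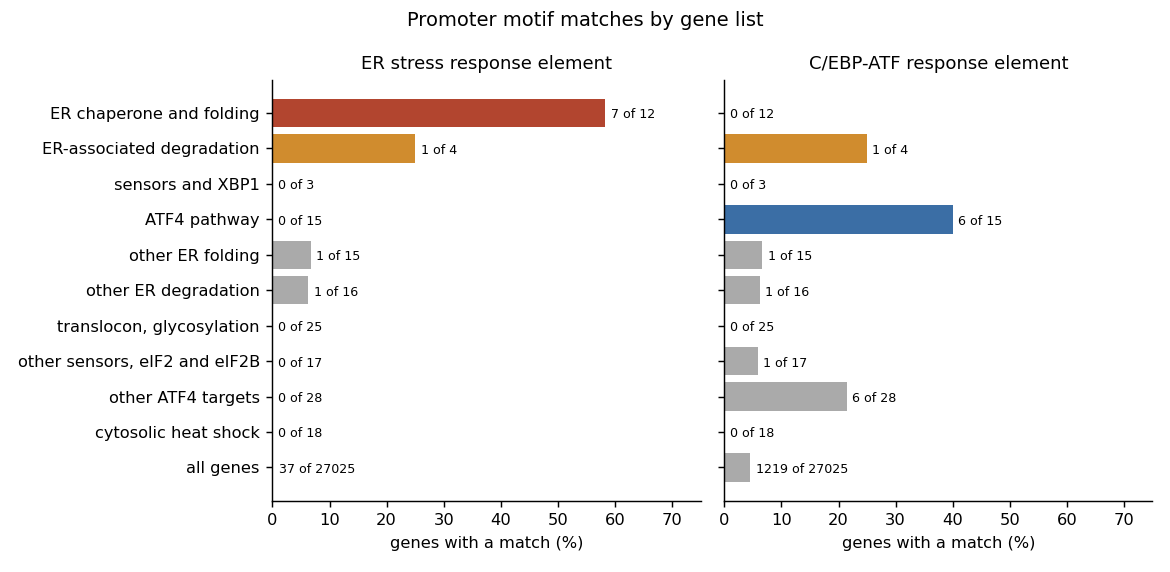
Share of genes (%) whose promoter window held the ER stress response element (left) or the C/EBP-ATF response element (right), by gene list, with counts of genes beside each bar. The first element was held by 7 of 12 chaperone genes and the second by 6 of 15 ATF4-pathway genes, against 37 and 1219 of 27025 genes in all.

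Further genes of the same pathways were taken from lists by function. Of 18 other ER folding genes measured, 8 lay above 0, and the median log2 difference was -0.01. At an unadjusted p under 0.05 stood 1 gene, higher in HLX cells, against 2.44% of all genes. This was Pdia5, another disulfide isomerase, with log2 levels of 7.70, 7.94 and 7.72 in HLX cells, against 7.36, 7.26 and 7.49 in control cells. The groups did not overlap, and the difference was 0.42 ± 0.11 (SE), or 1.34-fold (unadjusted p 0.00697, adjusted p from limma 0.901). Of 28 genes of the translocon, glycosylation and export from the ER, 17 lay above 0 with a median of 0.04, and none was at an unadjusted p under 0.05. The smallest p was that of Sec31a, a subunit of the COPII coat, with a difference of 0.19 (unadjusted p 0.110). Of 19 other degradation genes 10 lay above 0 with a median of 0.01, none was at an unadjusted p under 0.05, and the smallest p was that of Ubxn4, a cofactor of the VCP segregase, with a difference of -0.31 (unadjusted p 0.0683).

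A mixed list joined the eIF2 kinases, eIF2 and its exchange factor eIF2B, which act upstream of ATF4, with genes near the other sensors, such as Atf6b, Mbtps1, Creb3, Rtcb and Wfs1. Of its 19 genes measured 14 lay above 0, with a median of 0.12, against 47.5% of all genes and 56.4% of the brightest genes. None was at an unadjusted p under 0.05. Creb3l2, Eif2b2 and Wfs1 stood higher in HLX cells with no overlap, 3 of 19, against 4.34% of all genes, and 0 stood lower. The gaps between the closest arrays were small, 0.02, 0.04 and 0.02, and Creb3l2 was below the array median on all 6 arrays. The list level per array was 0.19, 0.04 and -0.03 on the HLX arrays, against -0.06, -0.11 and -0.03 on the control arrays, and the groups overlapped. The smallest p was that of Eif2b4, a subunit of eIF2B, with a difference of 0.45 ± 0.20 (SE) (unadjusted p 0.0567). Of 33 other ATF4 targets 17 lay above 0 with a median of 0.01. At an unadjusted p under 0.05 stood 1 gene, higher in HLX cells, against 2.44% of all genes. This was Cebpb, a factor that pairs with ATF4 and is also known in myeloid differentiation, with log2 levels of 7.004, 6.93 and 7.32 in HLX cells, against 6.69, 6.70 and 6.79 in control cells. All 3 HLX arrays were above the control arrays, and the difference was 0.36 ± 0.12 (SE) (unadjusted p 0.0228, adjusted p from limma 0.963). Over these 5 lists 66 of 117 genes lay above 0, with a median of 0.03. With no overlap 10 of the 117 stood higher and 1 lower, against 4.34% and 4.85% of all genes. Besides the mixed list, these were 3 higher among the other ATF4 targets and 2 higher among the other ER folding genes. The translocon, glycosylation and export list had 2 higher and 1 lower, and the other degradation genes had 0.

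**Figure D5:**
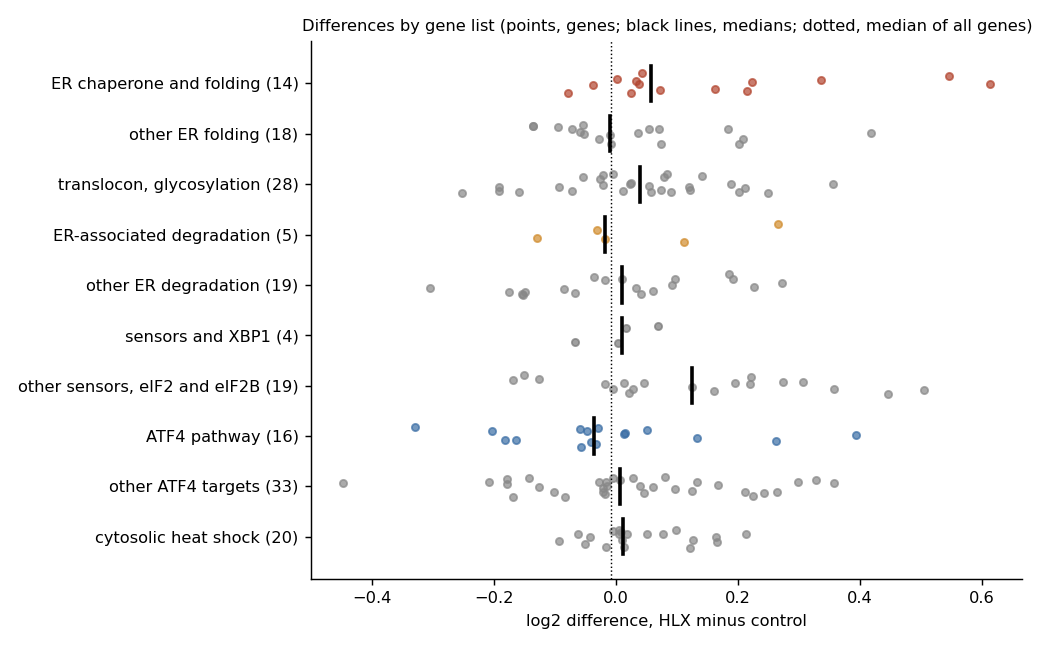
Log2 difference, HLX minus control, of each gene (point) of the 4 lists of the 39 genes and of 6 further lists, with black lines at list medians and a dotted line at the median of all genes, -0.01. The chaperone median was 0.06, the ATF4-pathway median -0.04, and the median of the other sensor, eIF2 and eIF2B genes 0.12.

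Markers of cell types are set beside these values. Of 8 stem and progenitor markers measured, 1 lay above 0, and their mean log2 level was 8.61 to 8.83 on the HLX arrays, against 8.79 to 8.94 on the control arrays. Flt3, a receptor of multipotent progenitors, differed by -0.68 with no overlap (unadjusted p 0.00369, adjusted p from limma 0.901). With no overlap 2 of the 8 stood lower, against 4.85% of all genes, and 0 stood higher, against 4.34%. Of 11 lineage markers 4 lay above 0, with a median of -0.06, and their mean level was 6.70 to 6.83 on the HLX arrays, against 6.47 to 6.66 on the control arrays. The myeloid genes Itgam, Cd68 and Csf1r stood higher in HLX cells with no overlap, by 0.89, 0.51 and 1.36. Among the 11 lineage markers 3 stood higher and 2 lower with no overlap, against 4.34% and 4.85% of all genes. The smallest adjusted p from limma among the 11 was 0.901. The granulocyte marker Ly6g and the T cell marker Cd8a stood lower with no overlap, by log2 differences of -0.15 and -0.12, and the platelet gene Pf4 differed by -0.52 with overlap. Cd4, Cd79a and Ly6g were below the array median on all 6 arrays. Of 8 plasma cell markers, taken because such cells have a large ER, Tnfrsf17, Prdm1, Jchain and Fcrl5 were below the array median on all 6 arrays. The mean level of all 8 was 5.82 to 5.98 on the HLX arrays, against 5.84 to 5.97 on the control arrays. Of these 8 genes 4 lay above 0. Cd79b, a B cell receptor subunit, differed by -0.63 (unadjusted p 0.0191, adjusted p from limma 0.936) and Irf4, a factor of lymphoid and myeloid cells, by 0.48 (unadjusted p 0.0806), both with no overlap. Among the 8 plasma cell markers 1 stood higher and 2 lower with no overlap. The 8 mast cell and basophil markers had a mean level of 5.02 to 5.16 on the HLX arrays, against 5.12 to 5.93 on the control arrays. Control replicate 1 held their highest values, 7.47 for Cpa3 and 7.66 for Gzmb, while Prss34, Tpsb2, Cma1, Fcer1a and Ms4a2 were below the array median on all 6 arrays. Among the 8 mast cell and basophil markers 0 stood higher and 1 lower with no overlap. The part of these cell types in the differences of the 39 genes was not tested.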

How the data were processed

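Gene expression was measured on Affymetrix arrays, 3 samples with the HLX vector and 3 with the control vector, grouped by the labels. The deposited values are log2 levels per probeset, made by the authors with Affymetrix Power Tools and its RMA method, as the submitters' processing notes name them. By its general design RMA subtracts background, brings arrays to a common distribution and joins the probes of a probeset, which hides shifts shared by most transcripts and shrinks differences of dim ones. The build behind the probe annotation was not given in the sources used here. The number of arrays limits the precision.

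Of 35556 probesets, 21789 had 1 symbol, 1621 several and 12146 were not listed. The brightest probeset was kept for the 999 genes with more than 1, which left 19938 genes. HLX was compared with control by limma 3.58.1 (lmFit, eBayes, 2-sided) in R 4.3.3, and p-values were adjusted over all genes (Benjamini-Hochberg, threshold 0.05). Residual degrees of freedom were 4, those of the prior 3.32, and SEs are moderated. The code was tested on simulated data. Lists were described by counts and medians, with no test over members.

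The 39 genes, the lists and the alternatives were chosen with earlier results of these data known. Named in full are the 14 of the 39 genes with the smallest p, with Hspa5, Xbp1, Atf6, Ern1, Eif2ak3, Atf4 and Ddit3, and the others by means. Of each further list up to 4 genes at an unadjusted p under 0.05 are named, or else the one with the smallest p. Creb3l2, Eif2b2, Wfs1 and the cell type markers outside this rule were named after their values were seen. Listed genes without a measured symbol, such as Ly6a, were not analysed here.

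Promoter windows came from RefSeq (GRCm38.p6), 32851 windows of 27025 genes, read from 250 bases before to 50 after the start and searched in Python 3.11.15. A chromosome was left out of the search, so shares of all genes are shares of the genes with a window. Hyou1, Manf, Derl1, Atf6 and Ppp1r15b have no window. Figures were drawn with matplotlib 3.10.9. The 14 alternatives were other variance priors, a filter on dim genes, other normalizations, the mean of a gene's probesets, array weights, the replicate number as a block, and leaving out each array.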

Additional observations from a re-analysis of the deposited data

How the results depend on the processing

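No alternative called any of the 39 genes over all genes. Over all genes 0 were called, and 1 was under a trended and robust prior. At an unadjusted p under 0.05, Hyou1, Sdf2l1 and Ppp1r15a stayed under 14 of 14 alternatives, Edem1 under 10 and Pdia3 under 7, and leaving out single arrays gave 3 to 5 of the 39 genes. The chaperone median ranged from 0.042 to 0.130 on leaving out single arrays, and the ATF4-pathway median from -0.068 to 0.020. Median centring of the arrays gave 612 genes higher and 376 lower at an unadjusted p under 0.05, against 487 and 471. Of 20 genes given in full, 13 kept their direction throughout, and 263 of 280 values did. The 17 turned values belonged to 7 genes. Ern1 gave -0.027 with quantile normalization and -0.016 with cyclic loess, and with array weights Xbp1 gave -0.038 and Eif2ak3 -0.043. Leaving out single arrays gave -0.091 to 0.158 for Ern1, -0.127 to 0.194 for Xbp1, -0.108 to 0.170 for Eif2ak3, -0.196 to 0.039 for Atf6, -0.138 to 0.011 for Atf4, -0.308 to 0.035 for Slc7a11 and -0.021 to 0.085 for Hspa5. The cause was not tested. Deviations from the group means correlated at 0.200, 0.0085 and 0.143 between same-numbered samples, and at -0.225 to 0.105 between differently numbered ones. The labels do not say what the numbers mark, so the block was kept as an alternative. It gave 626 genes higher and 579 lower at an unadjusted p under 0.05. With the replicate block the chaperone median was 0.0577, 5 of the 39 genes were at an unadjusted p under 0.05 (with Slc3a2 and without Pdia3), and the smallest adjusted p among them was 0.692.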

Other observations

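Heat shock proteins, most of them outside the ER and known to answer to HSF1 rather than to the ER sensors, were measured by 20 genes. Of these 14 lay above 0, and the median log2 difference was 0.01. None was at an unadjusted p under 0.05, and 1 of the 20 stood higher in HLX cells with no overlap, against 4.34% of all genes. The smallest p was that of Fkbp4, a co-chaperone of Hsp90, which averaged 10.52 ± 0.13 in HLX cells and 10.31 ± 0.04 in control cells, a difference of 0.21 ± 0.10 (SE) (unadjusted p 0.0700).

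The ER stress response element was also found in 1 of 15 other ER folding genes, Ero1b, which reoxidises disulfide isomerases, and in 1 of 16 other degradation genes, Derl3. The C/EBP-ATF element was found in 6 of 28 other ATF4 targets (21.4%), among them Nupr1, Jdp2, Slc1a4, Pck2 and Fgf21. The XBP1 element TGACGTGG, absent from the 34 genes searched, was found in 2 of 15 other ER folding genes (13.3%), Txndc5 and Txndc11. It was also found in 2 of 16 other degradation genes (12.5%), Vcp and Ube2j1, against 0.714% of all genes.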
